A study of Mus musculus with 6 samples.

Results

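Potassium channel genes were followed across the cell classes, clusters and libraries of a single-nucleus RNA sequencing study of the mouse hippocampus. A gene was taken as a member when its symbol was Kcn followed by letters, a number and at most 1 further letter. The rule found 92 of the 26049 genes in the deposited matrix, and it read symbols only, not values. The members fall into 40 genes of pore-forming Kv subunits, 12 auxiliary subunits of Kv channels (Kcnab, Kcne, Kcnip), 12 genes of calcium- or sodium-activated channels and their auxiliary subunits, 14 inward rectifiers (Kcnj) and 14 tandem-pore leak channels (Kcnk).

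Potassium channels let K+ leave the cell down its gradient, and so set the resting potential, end the action potential and limit repeated firing. Kv channels open on depolarization, and auxiliary subunits such as KChIP proteins tune their opening. BK and SK channels respond to internal calcium, GIRK channels respond to G proteins, and tandem-pore channels carry a background leak. In glia, inward rectifiers and leak channels take up K+ released by neurons, and in the choroid plexus they take part in the secretion of cerebrospinal fluid.

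All mice were male PS19, which carry a human tau transgene with the P301S mutation under the mouse prion protein promoter, so no group lacked the transgene. The 6 libraries, 1 each, were TBI VEGFC left, TBI VEGFC right, TBI GFP left, TBI GFP right, sham VEGFC right and sham GFP right hippocampus. TBI was a mild controlled cortical impact on the right hemisphere, and sham was the control operation. VEGFC and GFP were given by adeno-associated virus; VEGFC is a growth factor of lymphatic vessels, and GFP is green fluorescent protein. The labels give no age, no time after injury, no virus dose and no number of mice per library, and leave unsaid whether the 2 sides of TBI brains are paired.

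The files held 28650 nuclei, 3676 to 6002 per library, in 9 classes and 32 clusters named by the authors. Libraries had 15358208 to 18379148 counts of unique molecular identifiers (UMIs). Marker lists were highest in the class they mark for all 6 astrocyte, 6 oligodendrocyte, 5 oligodendrocyte precursor (OPC), 7 microglial, 6 choroid plexus, 4 excitatory and 5 inhibitory genes, and for 5 of 6 fibroblast genes (Pdgfra was higher in OPC). The 4 neuron subsets used below are clusters of the authors, called CA1-like (excitatory 1), dentate granule-like (excitatory 2 and 3), CA3-like (excitatory 4) and interneurons (inhibitory 1, 3, 6 and 8). All 7 CA1, 8 dentate granule, 6 CA3 and 9 interneuron markers were highest in their own subset. Libraries shared 91 barcode sequences, carried by 182 nuclei.

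Kcne2 and Kcnj13 had their highest levels in the same class, the choroid plexus epithelium, and the bases upstream of both genes are shown for that reason. Kcne2 codes for an auxiliary Kv subunit of secretory epithelia, and Kcnj13 for the inward rectifier Kir7.1. The sequences are the 250 bases before the annotated start in RefSeq, build GRCm38.p6, at chr16:92292139-92292388 on the plus strand and at chr1:87394730-87394979 on the minus strand. Capitals mark a match to TAATC on either strand (GATTA on the reverse), the core letters bound by OTX2-type homeodomain proteins.
Kcne2: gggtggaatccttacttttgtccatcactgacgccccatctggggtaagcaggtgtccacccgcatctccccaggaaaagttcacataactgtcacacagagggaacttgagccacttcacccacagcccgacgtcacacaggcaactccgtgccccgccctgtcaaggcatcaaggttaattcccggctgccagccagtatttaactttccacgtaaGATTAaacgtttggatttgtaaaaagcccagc
Kcnj13: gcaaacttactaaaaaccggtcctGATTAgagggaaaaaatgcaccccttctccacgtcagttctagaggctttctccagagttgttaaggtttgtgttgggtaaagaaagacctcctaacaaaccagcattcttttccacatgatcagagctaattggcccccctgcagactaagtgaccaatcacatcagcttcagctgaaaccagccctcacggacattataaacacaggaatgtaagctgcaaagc
The match begins at base 219 in the Kcne2 sequence and at base 25 in the Kcnj13 sequence. RefSeq gives another start for Kcne2, and the 250 bases before it (chr16:92295366-92295615, not shown) hold 0 matches. The same letters are in 6519 of the 32851 upstream windows of RefSeq genes, 19.8%, and in 18 of the 93 windows of members, 19.4%, so a match alone is common. RefSeq windows were found for 68 of the 92 members.

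A few genes carried most member transcripts. Over all nuclei they summed to 1399253 UMIs, of which Kcnip4 alone gave 35.0% and the 5 genes with the most UMIs gave 66.0%. Levels are UMIs scaled to a fixed total per population (CPM). They were at least 10 for 46 members over all nuclei and under 1 for 20, and the least counted member, Kcnj15, had 3 UMIs. The 20 were Kcna5, Kcna7, Kcna10, Kcne1, Kcne1l, Kcne3, Kcne4, Kcng4, Kcnj5, Kcnj8, Kcnj14, Kcnj15, Kcnk5, Kcnk6, Kcnk15, Kcnk16, Kcnk18, Kcnmb1, Kcnmb3 and Kcnn4. Kv pore subunits gave 40.5% of member UMIs, Kv auxiliary subunits 39.6%, calcium- or sodium-activated channel genes 11.9%, inward rectifiers 6.25% and tandem-pore channels 1.75%. CPM followed gene length, with a Spearman rho over the 92 genes of 0.73 with genomic span and 0.60 with exon length, a description across genes that share the same libraries.

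Levels of different genes are therefore set side by side per length only. Per 100 kb of genomic span, Kcna1 stood first at 888 CPM, although it was 25th by CPM. Kcnip4 had 430, Kcnj13 420 and Kcnd2 411 CPM per 100 kb of span. Per kb of exon, Kcnip4 stood first at 1346 CPM and Kcnd2 next at 411 CPM. Kcnip4 codes for KChIP4, a calcium-binding partner of Kv4 channels, and Kcnd2 for Kv4.2, the pore of the dendritic A-type current. Among the other families, Kcnma1, the BK channel pore, had 109 CPM per 100 kb of span, Kcnj3 (GIRK1) had 310, and Kcnk1 (TWIK-1) had 107.

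As a share of all UMIs of a class, members made up 1.88% ± 0.06 in excitatory neurons, 1.34% ± 0.07 in mixed neurons and 1.08% ± 0.07 in inhibitory neurons (SD, n = 6 libraries). They made up 0.800% ± 0.033 in OPC, 0.337% ± 0.013 in astrocytes, 0.331% ± 0.015 in oligodendrocytes, 0.254% ± 0.015 in fibroblasts, 0.170% ± 0.047 in microglia and 0.160% ± 0.007 in choroid plexus epithelium. The lowest OPC library, at 0.743%, was above the highest astrocyte library, at 0.352%. Astrocytes and oligodendrocytes overlapped, and so did microglia and choroid plexus. Kcnip4 alone made up 0.680% to 0.810% of all UMIs in excitatory, 0.427% to 0.593% in mixed and 0.127% to 0.239% in inhibitory neurons, by library. The makeup differed between classes as well: Kv pore subunits were 67.5% of member UMIs in OPC and 12.3% in fibroblasts, where tandem-pore channels gave 30.7% against 1.44% in excitatory neurons. Most tandem-pore UMIs of fibroblasts came from a single gene, Kcnk2, with 450 UMIs. These shares sum UMIs that are not scaled to gene length, so a single gene can carry the share of its family.

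Of the 92 members, 60 had a mean of at least 10 CPM in at least 1 class and 32 stayed below. Of the 60, 30 had their highest mean outside neurons. In 28 the lowest library of the highest class was above the highest library of every other class, and these are called set apart here. Of all 15361 genes with at least 10 CPM in a class, 24.5% were set apart, against the 46.7% that the 28 members make of the 60. Set apart were 6 members in excitatory neurons (1.87% of all genes), 6 in OPC (1.65%), 4 in oligodendrocytes (3.71%), 4 in choroid plexus (5.39%), 3 in inhibitory neurons (0.677%), 2 in microglia (5.33%), 2 in fibroblasts (2.35%), 1 in astrocytes (2.88%) and 0 in mixed neurons (0.631%). Against the single clusters of other classes, 16 of the 28 were still above every library, and 12 were not: Kcnn2, Kcnq1, Kcnh1, Kcnv1, Kcnh3, Kcnip4, Kcnh8, Kcnk10, Kcnh5, Kcnj16, Kcnmb4 and Kcnab1. No share of all genes stands beside the counts against clusters or outside neurons, so neither is read as particular to the members. Classes were built from the same expression values, so these are descriptions with no test.

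**Figure D1:**
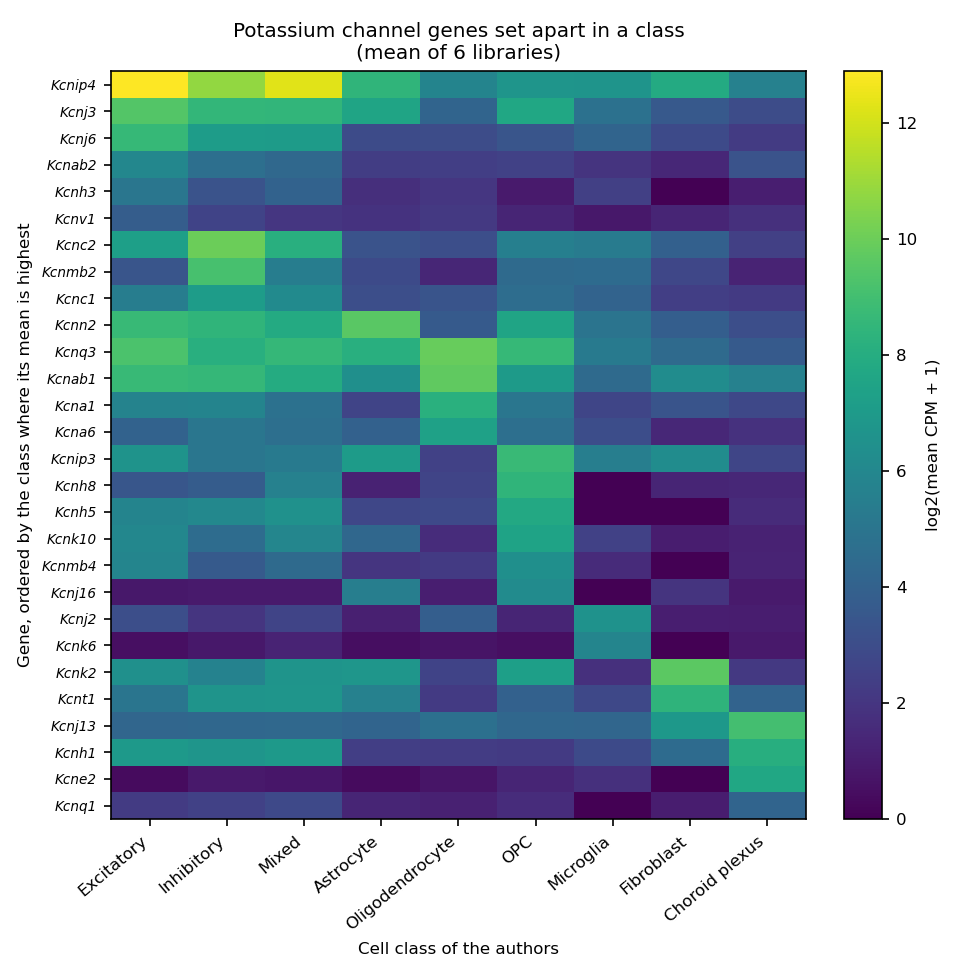
Mean CPM of 6 libraries on a log2(mean CPM + 1) colour scale for the 28 members set apart in a class (rows, ordered by the class of their highest mean) over the 9 classes of the authors (columns). Kcnip4 is brightest in excitatory neurons, and the lower blocks show members set apart in glia, fibroblasts and choroid plexus, with Kcne2 dark in all classes but choroid plexus.

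The largest ratio to the next class among the 28 was that of Kcne2 in choroid plexus epithelium, 80.7. Kcne2 had 196 CPM in its lowest library, a median of 203 and 208 in its highest there, on 660 UMIs, and at most a mean of 2.51 CPM in any other class. Kcnj13 had 438, 534 and 581 CPM (lowest, median, highest) in choroid plexus and 82.5, 116 and 153 CPM in fibroblasts, on 68 UMIs. Fibroblasts had no Kcne2 UMI among 609804, which allows a level of up to 4.92 CPM at 3 UMIs. In the other 7 classes Kcnj13 averaged 16.9 to 25.6 CPM. Kcnj13 lies inside Gigyf2 on the opposite strand (chr1:87386363-87394729, mm10). Gigyf2 had 471 CPM in choroid plexus and 150 to 225 CPM elsewhere, and no source states that counting used the strand, so reads of these genes may not be told apart.

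Choroid plexus also set apart Kcnh1 (Kv10.1, an EAG channel), with 210, 272 and 352 CPM there and a mean of 123 in excitatory neurons, and Kcnq1, a partner of KCNE subunits in epithelia, with 10.4, 15.9 and 25.6 CPM on 52 UMIs. By cluster, however, excitatory cluster 10, with enough nuclei in 5 libraries, had 312 CPM of Kcnh1 over its pooled nuclei (libraries 171 to 370 CPM), and choroid plexus had 270 CPM, with overlapping libraries.

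Oligodendrocytes had 4 members set apart, all Kv genes. Kcna1 (Kv1.1) had 238, 305 and 331 CPM (lowest, median, highest library), against a mean of 54.9 in inhibitory neurons. Kcna6 (Kv1.6) had 118, 171 and 192 CPM, against a mean of 32.1 in inhibitory neurons. Both sit on chromosome 6, minus strand, 61.9 kb apart (chr6:126640397-126646384 and chr6:126708329-126740674). Kcnab1, the Kv beta 1 subunit that binds Kv1 channels, had 818, 860 and 940 CPM, against a mean of 413 in excitatory neurons. Inhibitory cluster 5 had 799.6 to 844 CPM of Kcnab1 in 4 libraries, which overlaps the oligodendrocytes. Kcnq3 (Kv7.3), a subunit of the M-current, had 841, 938 and 1100 CPM, against 601 in excitatory neurons. Oligodendrocyte UMIs held 0.319% to 0.371% from 200 neuron genes.

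Neighbouring members did not always share a class. Of 9 pairs of members less than 110 kb apart, 3 had both genes at 10 CPM or more in a class, and Kcna1 with Kcna6 was the pair with the same highest class. Kcnj9 (GIRK3) and Kcnj10 (Kir4.1) lie 11.9 kb apart on chromosome 1, and Kcnj9 was highest in excitatory neurons (42.0 CPM) while Kcnj10 was highest in astrocytes (108 CPM). Kcnj16 (Kir5.1) and Kcnj2 (Kir2.1) lie 38.2 kb apart on chromosome 11, with Kcnj16 highest in OPC (median 80.5 CPM) and Kcnj2 in microglia (median 82.3 CPM).

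Kcnj10, the main inward rectifier of glial K+ uptake, had overlapping levels in 2 classes. It had 91.0, 111 and 120 CPM (lowest, median, highest) in astrocytes and 95.5, 109 and 117 CPM in oligodendrocytes, which overlap. OPC averaged 52.0 CPM, and excitatory neurons averaged 1.52 CPM. Its heteromer partner Kcnj16 had 55.8, 80.5 and 84.0 CPM in OPC, 34.8, 48.1 and 50.4 CPM in astrocytes, and a mean of 1.14 CPM in oligodendrocytes. Class sums of astrocytes and of OPC thus held both partners, and oligodendrocytes had Kcnj10 with little Kcnj16. Whether the same nuclei held both was not tested.

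Astrocytes set apart Kcnn2 (SK2), a calcium-activated channel, with 680, 783 and 827 CPM against a mean of 405 in excitatory neurons. Within excitatory neurons, however, the CA1-like subset had 784, 829 and 929 CPM, which overlaps the astrocyte libraries. Inhibitory cluster 8 had the highest cluster level of Kcnn2, 1189 CPM over pooled nuclei.

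OPC had 6 members set apart, from several families. Kcnh8 (Kv12.1, an ELK channel) had 291, 326 and 456 CPM, against a mean of 49.7 in mixed neurons. Kcnip3 (KChIP3) had 338, 418 and 530 CPM, against 133 in astrocytes. Kcnk10 (TREK-2), a leak channel, averaged 174 CPM, Kcnh5 (Kv10.2) 216, and Kcnmb4, a BK beta subunit, 83.7. Neuron clusters reached or passed OPC for all 3 over pooled nuclei or by library: inhibitory cluster 7 had 343 CPM of Kcnh5, excitatory cluster 12 had 151 CPM of Kcnmb4, and excitatory cluster 9 had 87.4 to 186 CPM of Kcnk10 by library, which overlaps the 151 to 195 CPM of OPC. Kcnd2 averaged 3182 CPM in OPC and 2962 in excitatory neurons, with overlapping libraries. At cluster level excitatory cluster 12 had 300 CPM of Kcnh8, close to the 340 CPM of OPC.

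Microglia set apart Kcnk6 (TWIK-2), with 18.4, 60.3 and 94.3 CPM on only 29 UMIs, and Kcnj2, with 70.9, 82.3 and 166 CPM on 50 UMIs. The lowest Kcnk6 library, sham VEGFC right, held 1 UMI of the gene, so that Kcnk6 is set apart rests on this UMI. Kcnk6 averaged at most 1.43 CPM in any other class, and 29 of its 84 UMIs came from the microglia. Kcnk13 (THIK-1), a leak channel known in microglia, had 241, 308 and 377 CPM in microglia, and 254, 264 and 301 CPM in oligodendrocytes. These ranges overlap, and OPC stood next at 32.5 CPM. Fibroblasts set apart Kcnk2 (TREK-1), with 614, 752 and 1050 CPM against a mean of 154 in OPC, and Kcnt1 (Slack, a sodium-activated channel), with 273, 326 and 411 CPM against a mean of 103 in mixed neurons.

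**Figure D2:**
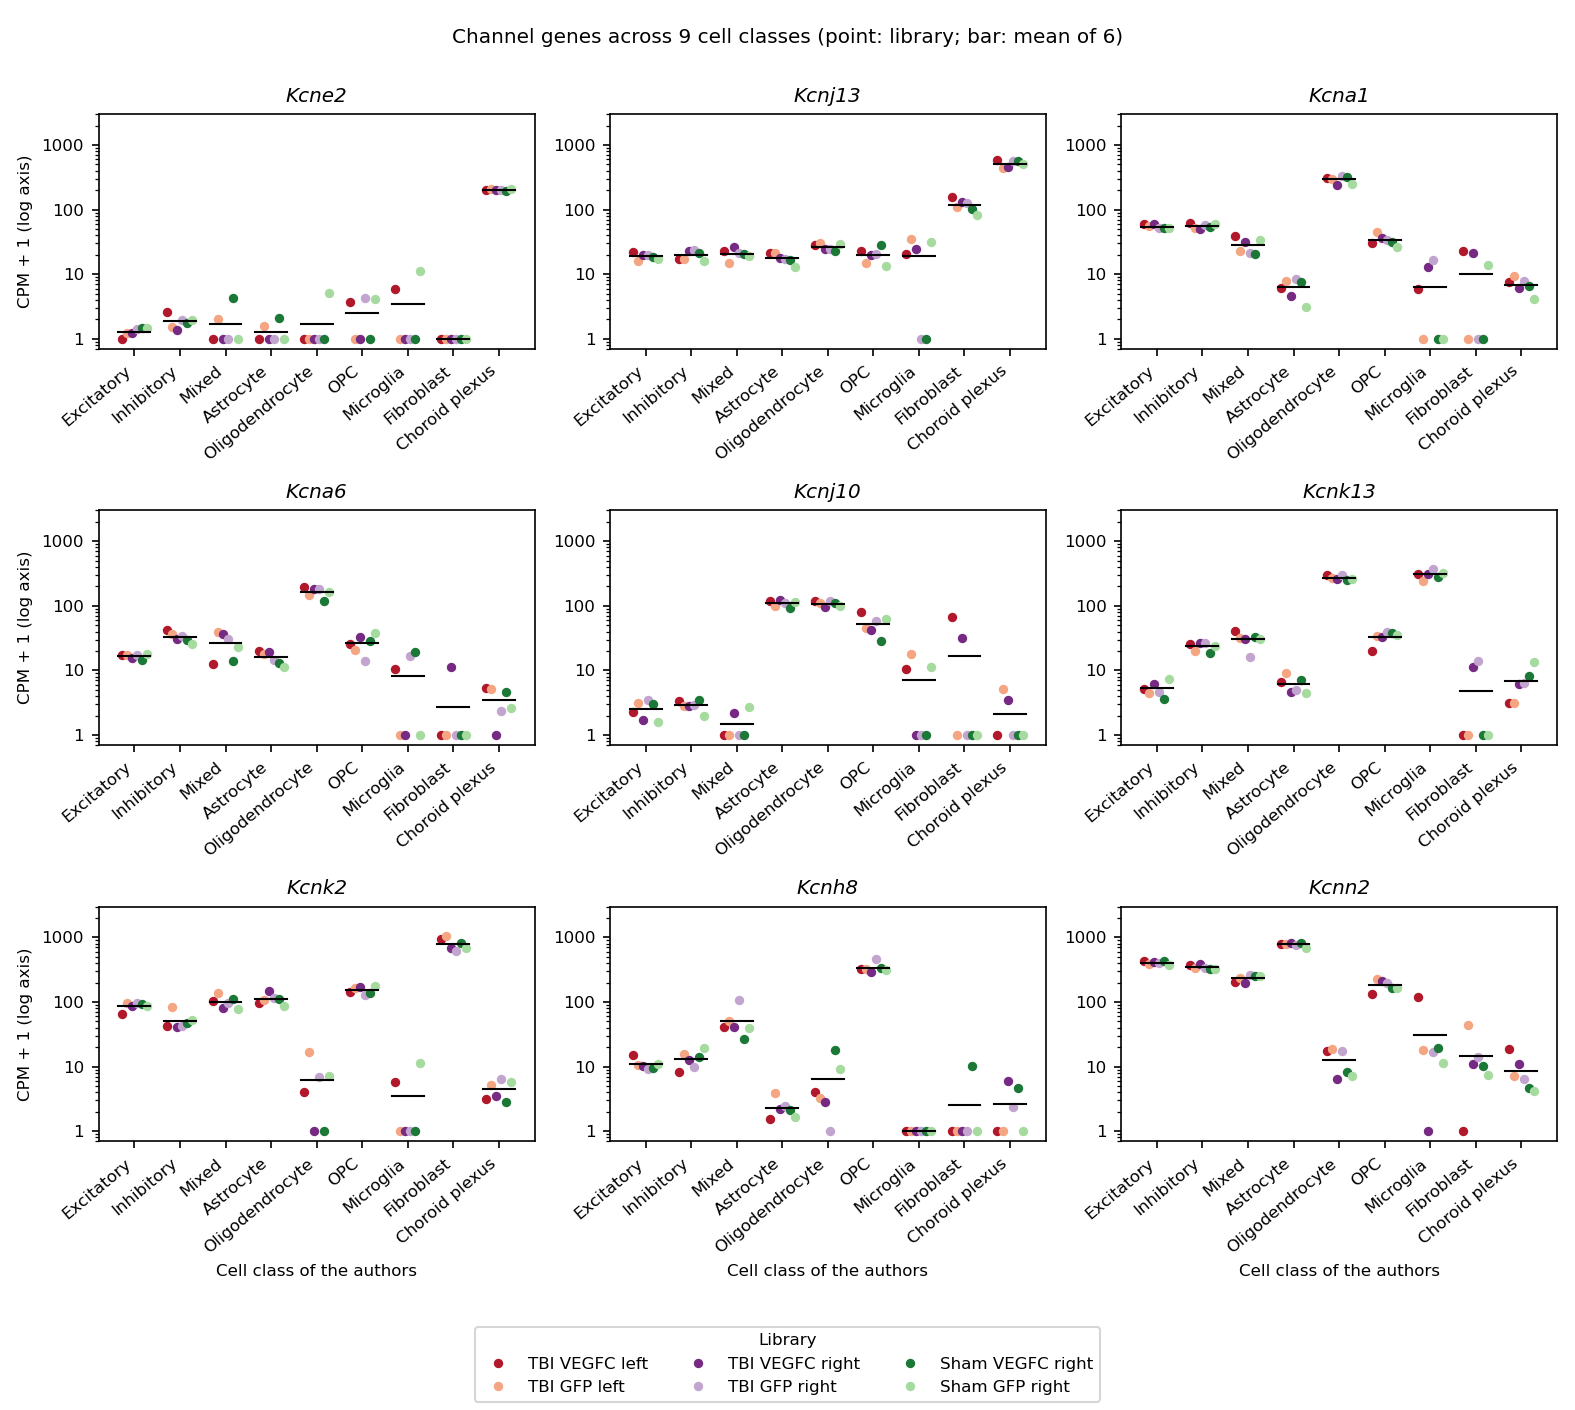
CPM + 1 on a log axis for 9 members over the 9 classes (point: library; bar: mean of 6 libraries). Kcne2 sits near 200 CPM in choroid plexus and close to 0 elsewhere, Kcna1 and Kcna6 are highest in oligodendrocytes, Kcnj10 is level between astrocytes and oligodendrocytes, and Kcnk13 between microglia and oligodendrocytes.

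Inhibitory neurons set apart Kcnmb2 (BK beta 2), Kcnc2 (Kv3.2) and Kcnc1 (Kv3.1). Kv3 channels allow short action potentials and fast firing. Kcnmb2 averaged 562 CPM in the inhibitory class and 43.8 in mixed neurons, and Kcnc2 averaged 1019 and 281 CPM. Kcnc1 averaged 140 CPM in the inhibitory class and 71.1 CPM in mixed neurons. The inhibitory class is uneven between libraries: interneuron clusters were 83.2% of its nuclei in TBI VEGFC left, 69.0% in TBI VEGFC right, 50.1% in TBI GFP left, 63.3% in TBI GFP right, 52.0% in sham VEGFC right and 59.2% in sham GFP right. Kcnmb2 ranged over 394 to 802 CPM in the class and over 738 to 937 CPM in the interneuron subset, and Kcnc2 over 797 to 1450 and over 1408 to 1669 CPM. Kcns3, a silent Kv9.3 subunit, had 273 CPM over the pooled nuclei of inhibitory cluster 6, and inhibitory cluster 1 stood next at 104 CPM.

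Excitatory neurons set apart Kcnip4 (7579 CPM), Kcnj3 (688), Kcnj6 (GIRK2, 391), Kcnab2 (Kv beta 2, 62.0), Kcnh3 (Kv12.2, 32.8) and Kcnv1 (a silent Kv8.1 subunit, 12.9), as means of 6 libraries. Between excitatory and inhibitory neurons, 25 of 51 members had all excitatory libraries higher, 12 had all inhibitory libraries higher and 14 overlapped. Over all genes with at least 10 CPM in either class, 15.0% were higher and 25.0% lower in excitatory neurons in this way.

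Several members had very unequal levels in the excitatory subsets. Kcnh7 (Kv11.3, an ERG channel) had 1672, 1694 and 1946 CPM (lowest, median, highest) in CA1-like neurons. It had 149, 171 and 188 CPM in dentate granule-like neurons, and 7.29, 14.7 and 22.1 CPM in CA3-like neurons. Kcnq5 (Kv7.5, an M-current subunit) had the reverse order between the pyramidal subsets, with 3266, 3403 and 3817 CPM in CA3-like neurons, 803, 828 and 909 CPM in CA1-like neurons, and 36.5, 47.8 and 58.1 CPM in dentate granule-like neurons. No libraries of different subsets overlapped for either gene. Kcnq5 was among the 10 leading genes of the CA3-like cluster, as was Kcnmb2 of the interneuron subset, so these levels helped to define the subsets.

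Dentate granule-like neurons nearly lacked Kcnc2, at 2.45 to 5.03 CPM, against a mean of 283 in CA1-like, 436 in CA3-like and 1515 in interneurons. They had low Kcnn2, at 96.5 to 114 CPM. They were high for Kcnd3 (Kv4.3), with 244, 254 and 290 CPM, against a mean of 35.2 in CA1-like and 177 in CA3-like neurons, and for Kcnc4 (Kv3.4), with a mean of 32.0 CPM against 1.10 in CA1-like and 3.74 in CA3-like neurons. The other A-type pore gene, Kcnd2, averaged 4465 CPM in CA1-like, 3162 in dentate granule-like and 1553 in CA3-like neurons.

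Kcnab1 followed the order CA1-like (733 CPM), dentate granule-like (315) and CA3-like (166). Kcnk9 (TASK-3), an acid-sensitive leak channel, was level between CA1-like (48.5 CPM) and dentate granule-like (47.4) neurons, with overlapping libraries, and had 6.20 CPM in CA3-like neurons. Kcnip1 (KChIP1) averaged 332 CPM in interneurons and at most 3.92 CPM in the excitatory subsets. Counted over members, dentate granule-like neurons were higher in all libraries than CA1-like neurons for 23, lower for 11 and overlapping for 13, where 21.0% of all genes were higher and 15.4% lower. CA3-like neurons were higher than CA1-like neurons for 17, lower for 16 and overlapping for 10, where 11.7% of all genes were higher and 13.7% lower. Dentate granule-like neurons were higher than CA3-like neurons for 27, lower for 9 and overlapping for 12, where 21.2% of all genes were higher and 14.1% lower.

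**Figure D3:**
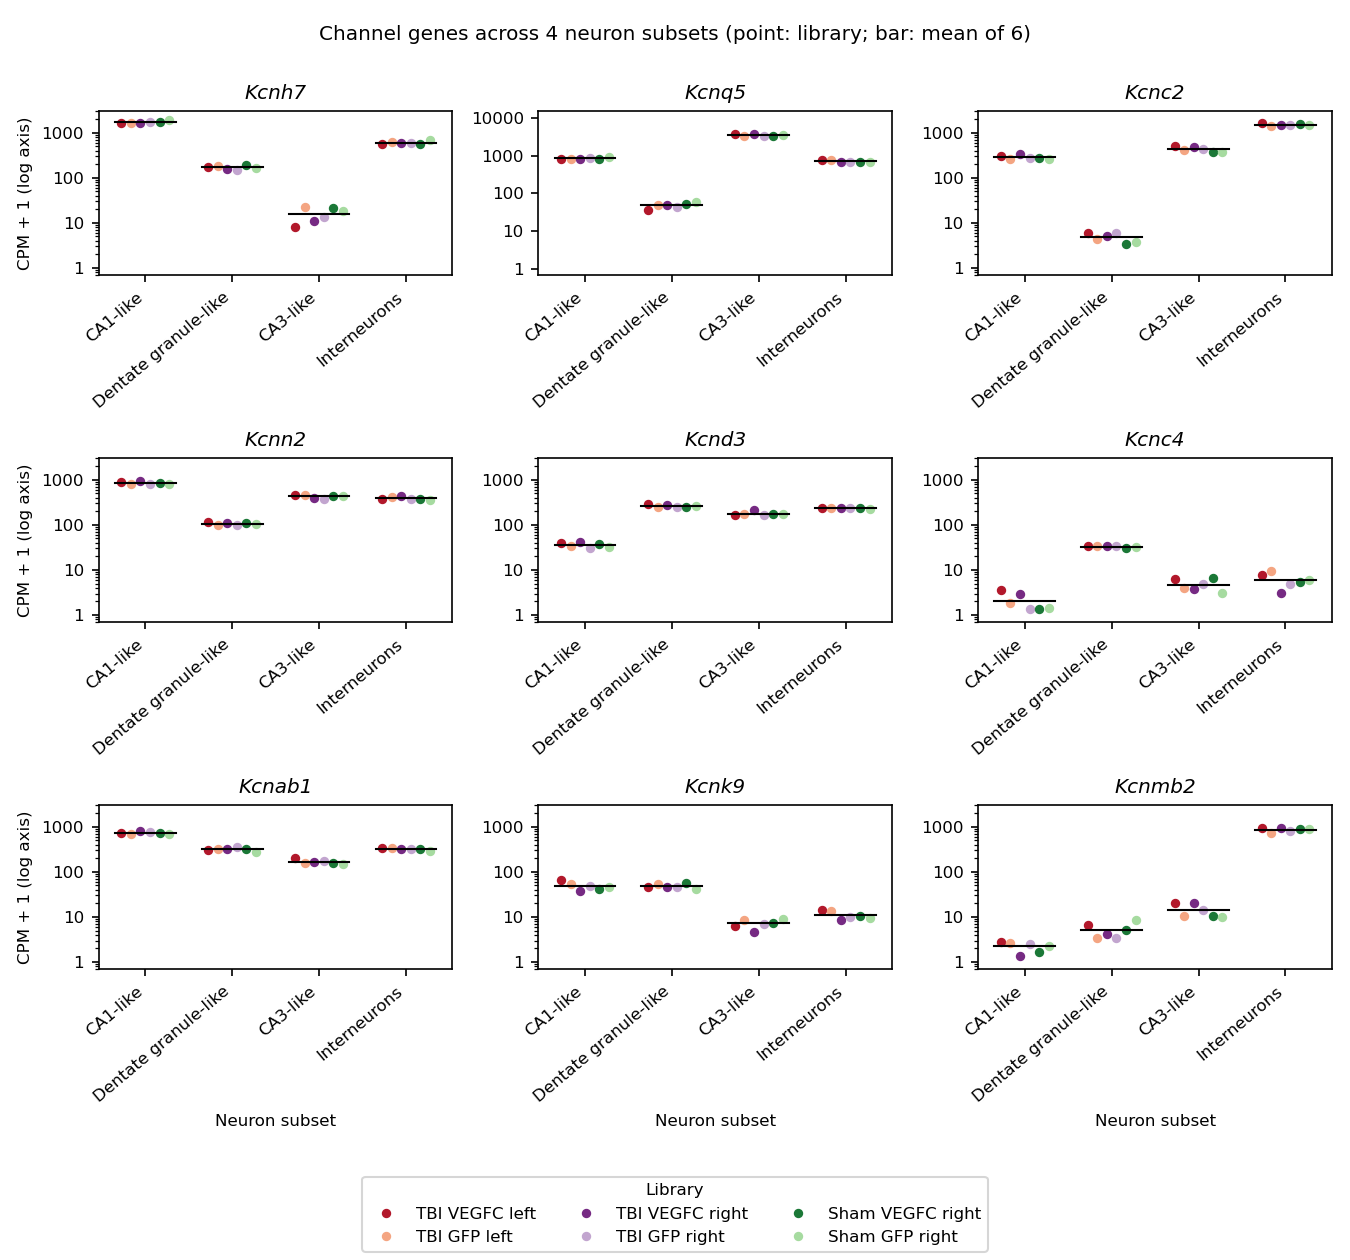
CPM + 1 on a log axis for 9 members in the 4 neuron subsets (point: library; bar: mean of 6 libraries). Kcnh7 is highest in CA1-like neurons, Kcnq5 in CA3-like neurons, Kcnc2 and Kcnmb2 in interneurons, and Kcnc4 in dentate granule-like neurons, with libraries of every condition lying together within a subset.

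The conditions were compared on UMIs summed per class and library, with edgeR's quasi-likelihood test and Benjamini-Hochberg adjustment over all genes of a class or subset. Each combination of injury, vector and side has 1 library, so the spread rests on 2 residual degrees of freedom and on spread borrowed from other genes, 72.4 prior degrees of freedom in astrocytes and 48.2 in the mixed neuron fit described last. The p-values measure the spread between these libraries, which may be technical.

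The effect of VEGFC against GFP was tested over 3 contexts (sham right, TBI right, TBI left). No member passed in 278 pairs of member and class, where 0.0281% of all gene and class pairs were called, nor in 198 pairs of member and neuron subset, where 0.0247% of all were called. An unadjusted p under 0.05 was reached by 26 of the 278 pairs, 9.35%, and by 5.41% of all gene and class pairs. In subsets it was reached by 21 of the 198, and by 6.12% of all pairs. DESeq2 called 0 as well. Among the 10 pairs of smallest p with a higher value were Kcnh5 in OPC and dentate granule-like neurons, Kcnd2 in OPC and interneurons, Kcnq3 and Kcnn3 (SK3) in dentate granule-like neurons, Kcng2 (a silent Kv6.2 subunit) in excitatory neurons, Kcnmb2 in interneurons, and Kcnc2 in CA1-like neurons. The log2 folds of the 10 were 0.17 to 0.50 and the adjusted p-values 0.447 to 0.867 (edgeR), so none passed.

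Kcnq3 in dentate granule-like neurons had 631, 629 and 617 CPM in the VEGFC libraries (TBI left, TBI right, sham), and 540, 559 and 566 CPM in the GFP libraries. All VEGFC libraries were above all GFP libraries, at a log2 fold of 0.19 (SE 0.06, edgeR adjusted p = 0.447). For the 10 pairs of smallest p with a lower value, adjusted p-values ran from 0.438 to 1.00 (edgeR), so none passed. Kcnt2 (Slick) in CA1-like neurons had 175, 182 and 174 CPM in the VEGFC libraries, and 236, 199 and 234 CPM in the GFP libraries, without overlap, at a log2 fold of -0.30 (SE 0.09, edgeR adjusted p = 0.438). Kcnt1 in excitatory neurons had 22.9, 23.7 and 32.0 CPM in the VEGFC libraries, and 33.3, 40.5 and 35.4 CPM in the GFP libraries, also without overlap, at -0.45 (SE 0.11, edgeR adjusted p = 0.634). The other pairs were Kcnt2 in mixed neurons, Kcnt1, Kcnn3 and Kcnip2 (KChIP2) in inhibitory neurons, Kcnk2 in CA3-like neurons, Kcnb2 (Kv2.2) in dentate granule-like neurons, and Kcnip1 and Kcnh8 in mixed neurons.

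**Figure D4:**
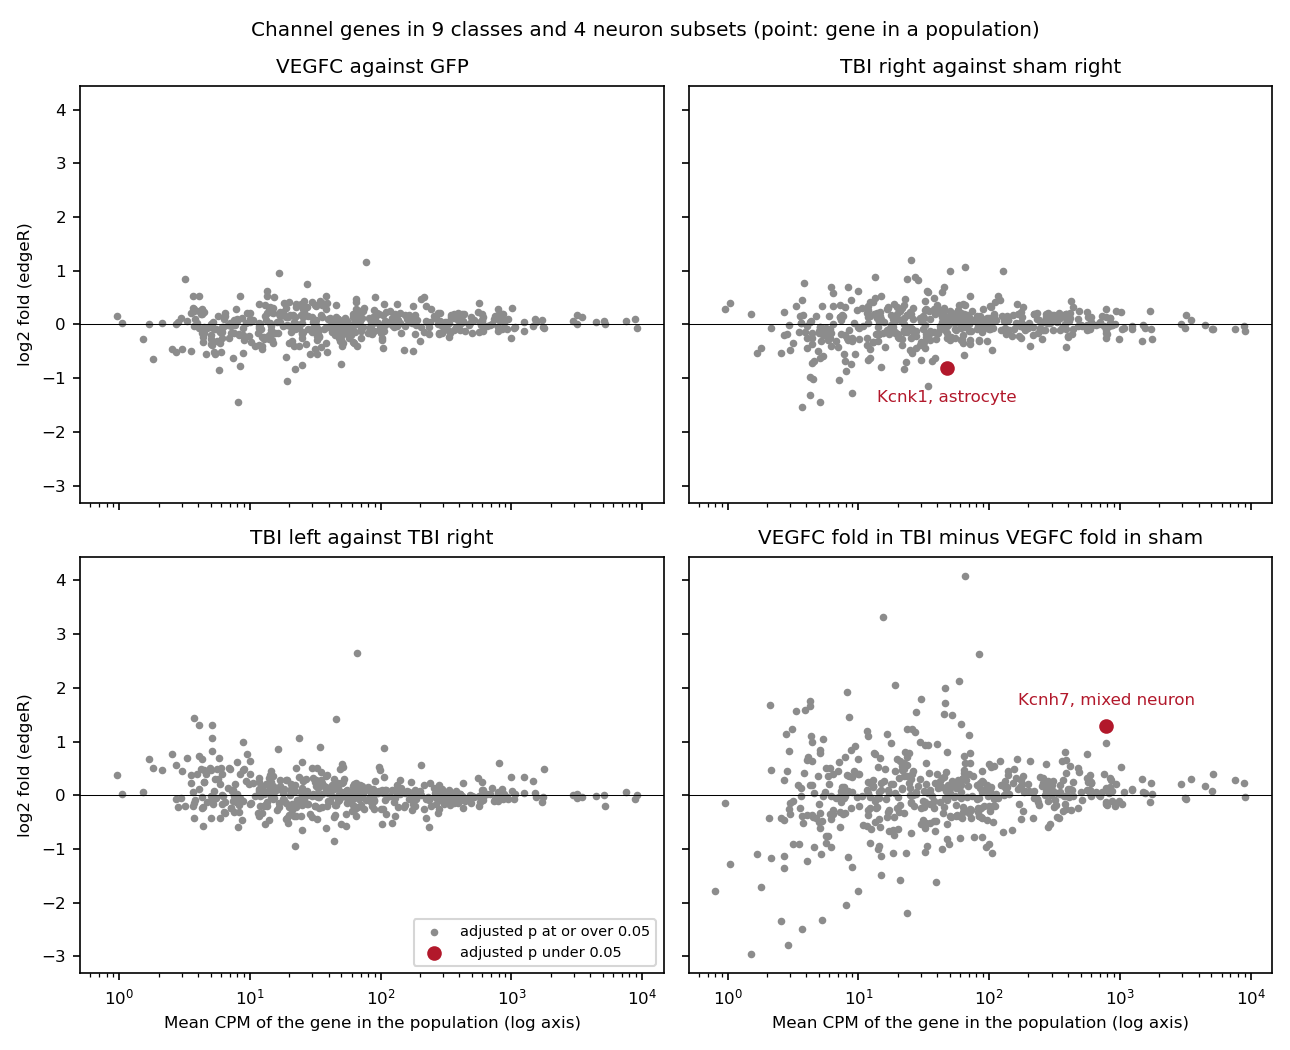
Log2 fold (edgeR) against mean CPM of the gene in the population (log axis) for every tested pair of member and class or neuron subset, in 4 panels, 1 per comparison. Points at an adjusted p under 0.05 are red: Kcnk1 in astrocytes at -0.82 for TBI right against sham right, and Kcnh7 in mixed neurons at 1.30 for the difference of the VEGFC folds.

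After TBI, Kcnk1 fell in astrocytes of the right hippocampus. Kcnk1 (ENSMUSG00000033998.9, chr8:125995170-126030685, mm10) codes for TWIK-1, a tandem-pore channel that adds to the passive conductance of mature astrocytes. It had 33.4 CPM in TBI VEGFC right and 43.3 CPM in TBI GFP right, against 72.8 CPM in sham VEGFC right and 63.3 CPM in sham GFP right. The TBI and sham libraries did not overlap. The values rest on 55 and 87 UMIs in the TBI libraries and on 132 and 92 UMIs in the sham libraries, with exact Poisson 95% intervals of 25.2 to 43.5 and 34.7 to 53.4 CPM, against 60.9 to 86.4 and 51.0 to 77.6 CPM, which cover counting error only. The log2 fold was -0.82 (SE 0.19, edgeR adjusted p = 0.0224), lower in 2 of 2 matched pairs. It was the single call among 278 pairs of member and class, where 0.0782% of all gene and class pairs were called, and 24 had an unadjusted p under 0.05, as did 5.03% of all pairs. In astrocytes 42 of 12883 genes were called, and the median log2 fold was -0.04 over the 38 members tested and -0.00 over all genes.

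The call rests on few libraries. It was lost without sham VEGFC right (log2 fold -0.42, edgeR adjusted p = 0.709), without TBI GFP right (-0.88, adjusted p = 0.428) and without TBI VEGFC right (-0.77, adjusted p = 0.556), and DESeq2 did not call it (-0.82, adjusted p = 1.00). The TBI left libraries had 24.8 CPM of Kcnk1 in TBI VEGFC left and 48.2 CPM in TBI GFP left, also below both sham libraries, and left did not pass against right (log2 fold -0.09, edgeR adjusted p = 1.00).

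Astrocyte clusters 1 and 3 held nearly all astrocyte Kcnk1 UMIs. In astrocyte cluster 1, Kcnk1 had 24.2 CPM in TBI VEGFC right and 45.4 CPM in TBI GFP right, against 76.1 CPM in sham VEGFC right and 63.5 CPM in sham GFP right. In astrocyte cluster 3 it had 52.0 and 41.9 CPM in the same TBI libraries, against 75.6 and 68.5 CPM in the sham libraries. Neither cluster had a TBI right library above a sham library. Median astrocyte depth was 1713.5 and 1728.5 UMIs in TBI VEGFC right and TBI GFP right, against 1531 and 1663 UMIs in sham VEGFC right and sham GFP right.

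Other RNA in the astrocyte sums was measured too. UMIs from 200 neuron genes were 0.339% of astrocyte UMIs in both TBI right libraries, against 0.384% and 0.406% in sham VEGFC right and sham GFP right. Without nuclei over 2% neuron RNA the Kcnk1 log2 fold was -0.83 (edgeR adjusted p = 0.0254). Choroid plexus markers (6 of 6 measured, none at 0) summed to 357 and 777 CPM in TBI VEGFC right and TBI GFP right, against 778 and 515 CPM in sham VEGFC right and sham GFP right. Microglial markers (7 of 7 measured, none at 0) summed to 142 and 130 CPM, against 238 and 160 CPM in the same order, and their part in the Kcnk1 result was not tested. In other populations Kcnk1 did not pass: its log2 fold was -0.67 in interneurons (adjusted p = 0.479), -0.37 in dentate granule-like neurons (0.536), -0.43 in inhibitory neurons (0.995), -0.29 in choroid plexus (0.963), 0.13 in CA1-like neurons (0.964) and 0.84 in mixed neurons (1.00), all by edgeR.

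**Figure D5:**
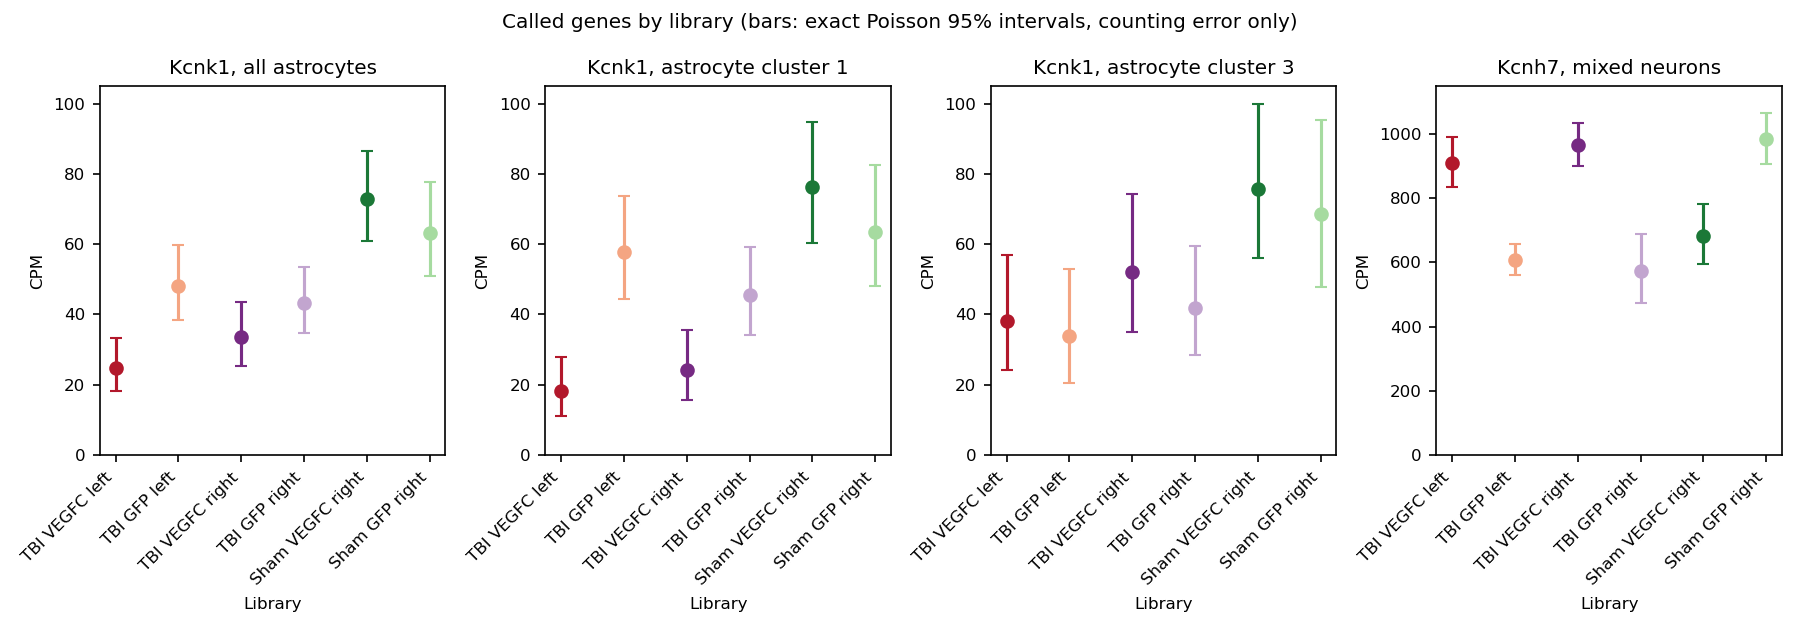
CPM per library with exact Poisson 95% intervals (counting error only) for Kcnk1 in all astrocytes and in astrocyte clusters 1 and 3, and for Kcnh7 in mixed neurons. Both TBI right libraries lie below both sham libraries for Kcnk1 in all 3 astrocyte panels, and for Kcnh7 the TBI VEGFC libraries (911 and 965 CPM) and sham GFP (984 CPM) lie above the TBI GFP libraries and sham VEGFC.

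No member was called in the 198 subset pairs of TBI right against sham right, where 0.0884% of all were called and 12 had an unadjusted p under 0.05, as did 5.7% of all pairs. The next smallest p was that of Kcnip4 in interneurons, with 1297 and 1232 CPM in TBI VEGFC right and TBI GFP right, against 1462 and 1734 CPM in sham VEGFC right and sham GFP right, at a log2 fold of -0.31 (SE 0.08, edgeR adjusted p = 0.167). Kcnk2 in astrocytes had 148 and 113 CPM in the TBI right libraries, against 112 and 86.6 CPM in the sham libraries in the same order, at 0.41 (SE 0.13, edgeR adjusted p = 0.273). The groups did not overlap, by a gap of less than 1 CPM. Kcnab1 in OPC had 134 and 204 CPM in the TBI right libraries, against 102 and 68.9 CPM in the sham libraries, at 1.00 (SE 0.28, edgeR adjusted p = 0.657).

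Other pairs of small p with a higher value in TBI right were Kcns3 in inhibitory neurons, Kcnc2 in CA3-like neurons, Kcnip2 in CA1-like neurons, Kcnip3 and Kcnd2 in OPC, and Kcnh8 in mixed neurons. Among pairs with a lower value were Kcnk1 in the 3 populations above, Kcng2 and Kcnk2 in CA3-like neurons, Kcnq5 and Kcnh7 in astrocytes, and Kcnh7 in dentate granule-like neurons. Adjusted p-values of these pairs ran to 1.00 (edgeR).

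TBI left was compared with TBI right, the injured side, and this comparison shares the TBI right libraries with the one before. No member passed in 278 class pairs, where 0.0318% of all pairs were called, or in 198 subset pairs, where 0.00822% of all were called. An unadjusted p under 0.05 was reached by 19 of the 278 class pairs, 6.83%, and by 3.49% of all gene and class pairs. In subsets it was reached by 9 of the 198, 4.55%, and by 3.7% of all pairs, and DESeq2 called 0. Kcnip4 in interneurons had 1544 and 1524 CPM in TBI VEGFC left and TBI GFP left, against 1297 and 1232 CPM in TBI VEGFC right and TBI GFP right, at a log2 fold of 0.27 (SE 0.08, edgeR adjusted p = 0.472). Kcnk9 in CA1-like neurons had 66.3 and 53.2 CPM in the left libraries, against 37.0 and 47.6 CPM in the right libraries, at 0.48 (SE 0.16, edgeR adjusted p = 0.999). Neither gene's sides overlapped.

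Some pairs of small p rested on few nuclei. Kcnh7 in microglia had a log2 fold of 2.64 for left against right (SE 0.84, edgeR adjusted p = 0.243), and a single nucleus gave 68.0% of its 50 UMIs. UMIs from 200 neuron genes were 0.600% and 1.15% of microglial UMIs in TBI VEGFC left and TBI GFP left, against 0.235% and 0.269% in TBI VEGFC right and TBI GFP right, and their part was not tested. Kcnc2 in OPC had 1.42 (SE 0.39, edgeR adjusted p = 0.619), and a single nucleus gave 18.1% of its 94 UMIs. Other pairs with a higher value in left were Kcnip2 in interneurons, Kcnip4 and Kcnj3 in OPC, Kcnb2 in CA3-like neurons, Kcna2 (Kv1.2) in oligodendrocytes and Kcnd2 in astrocytes. Among those with a lower value were Kcnk2 and Kcnq3 in astrocytes, Kcnd3 in OPC, Kcns3 and Kcnj13 in interneurons, Kcnj13 in inhibitory neurons, Kcnh1 and Kcnmb2 in mixed neurons, and Kcnh1 in choroid plexus.

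Whether VEGFC went with a different change after TBI than after sham was tested as the difference of the log2 folds, with left and right TBI libraries taken as replicates. Sham had 1 library per vector, from the right side only. The spread in this fit thus came from left against right TBI libraries and from other genes, with none between sham libraries. Among 302 pairs of member and class, 1 was called, where 0.221% of all gene and class pairs were called, and 42 had an unadjusted p under 0.05, as did 7.24% of all pairs. Among 212 subset pairs 0 were called by edgeR, where 0.239% of all were called, and 23 had an unadjusted p under 0.05, as did 7.63% of all pairs. The call was Kcnh7 in mixed neurons. It had 911 and 965 CPM in TBI VEGFC left and right, against 608 and 573 CPM in TBI GFP left and right, while sham VEGFC had 683 CPM and sham GFP 984 CPM. VEGFC was thus above GFP after TBI and below it after sham, and the difference of log2 folds was 1.30 (SE 0.26, edgeR adjusted p = 0.0027), with 126 of 10580 genes called in this class.

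The Kcnh7 result is that of a small and mixed class. The nuclei numbered 102 and 160 in TBI VEGFC left and right, 259 and 46 in TBI GFP left and right, 86 in sham VEGFC and 129 in sham GFP. Median depth moved with the result, at 5803 and 5221 UMIs in TBI VEGFC left and right, 3698 and 3859.5 UMIs in TBI GFP left and right, 3313 in sham VEGFC and 4462 in sham GFP. CA3 markers (6 of 6 measured, none at 0) summed to 852 and 905 CPM in TBI VEGFC left and right, 742 and 608 CPM in TBI GFP left and right, 712 CPM in sham VEGFC and 911 CPM in sham GFP. Excitatory markers (4 of 4 measured, none at 0) summed to 340, 389, 276, 254, 252 and 360 CPM in the same order of libraries. CA1 markers (7 of 7, none at 0) summed to 126, 155, 210, 279, 142 and 107 CPM, and inhibitory markers (5 of 5, none at 0) to 1043, 1101, 1060, 1087, 1016 and 1062 CPM. The part of depth and of these lists in the result was not tested.

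The fold of Kcnh7 remained positive without each TBI library in turn, at 1.23 to 1.36, and the call was lost without TBI GFP left (edgeR adjusted p = 0.0879). With nuclei limited to a doublet score of at most 0.05 the difference was 2.05 and did not pass (edgeR adjusted p = 0.874). DESeq2 called it (1.28, adjusted p = 0.0261). In interneurons the same difference for Kcnh7 was 0.23 (SE 0.14, edgeR adjusted p = 0.850), and in CA1-like neurons, where Kcnh7 was highest, 0.22 (SE 0.10, edgeR adjusted p = 0.479). In the whole inhibitory class the Kcnh7 difference was 0.50 (SE 0.19), and in the whole excitatory class 0.13 (SE 0.13), and neither passed. At the doublet limit, added after seeing the data, the difference in the excitatory class was 0.48 and passed. Kcnh7 overlaps Gca, which is on the other strand, and counts of the pair may not be separable.

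The next smallest p-values were those of Kcnq3 and Kcnma1. Kcnq3 in CA1-like neurons had 779 and 823 CPM in TBI VEGFC left and right, 662 and 684 CPM in TBI GFP left and right, 757 CPM in sham VEGFC and 804 CPM in sham GFP, a difference of log2 folds of 0.39 (SE 0.11, edgeR adjusted p = 0.116). Kcnma1 in mixed neurons had 1013 and 792 CPM in TBI VEGFC left and right, 728 and 853 CPM in TBI GFP left and right, 515 CPM in sham VEGFC and 809 CPM in sham GFP, a difference of 0.97 (SE 0.28, edgeR adjusted p = 0.0633). Kcnj6 in excitatory neurons had 421 and 460 CPM in TBI VEGFC left and right, 385 and 361 CPM in TBI GFP left and right, 344 CPM in sham VEGFC and 373 CPM in sham GFP, a difference of 0.42 (SE 0.12, edgeR adjusted p = 0.277). In these 3 genes the sham VEGFC library was below the sham GFP library.

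Other positive differences that did not pass were those of Kcnn3 in excitatory neurons, Kcnb2 and Kcnk1 in CA1-like neurons, Kcnq3 and Kcnq5 in CA3-like neurons, and Kcnh3 in mixed neurons. Negative ones that did not pass were those of Kcnk1 and Kcnq5 in astrocytes, Kcnd2, Kcna1 and Kcna2 in oligodendrocytes, Kcnk2 in dentate granule-like and mixed neurons, Kcnk9 in dentate granule-like neurons, Kcnt1 in excitatory neurons and Kcnip4 in OPC. For Kcnk1 in astrocytes the difference was -0.81 (SE 0.29, edgeR adjusted p = 0.438).

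A list of 33 genes that work with these channels was taken alongside: Kv4, Kv2 and BK partners without a Kcn symbol, sulfonylurea receptors, HCN channels, genes of Kv1 clustering, the sodium pump, chloride cotransporters and Aqp4. For VEGFC against GFP, 0 of 163 class pairs and 0 of 96 subset pairs of this list were called by edgeR, and 7 and 2 had an unadjusted p under 0.05. For TBI right against sham right, 2 of 163 class pairs and 1 of 96 subset pairs fell and 0 rose. Over all genes, 0.0782% of class pairs and 0.0884% of subset pairs were called. An unadjusted p under 0.05 was reached by 10 class pairs and 6 subset pairs of the list, and by 5.03% and 5.7% of all pairs. Cntnap2, the Caspr2 protein of Kv1 clustering, fell in astrocytes, with 23.7 and 20.4 CPM in TBI VEGFC right and TBI GFP right, against 46.3 and 40.6 CPM in sham VEGFC right and sham GFP right, at a log2 fold of -0.97 (SE 0.22, edgeR adjusted p = 0.0225). Dlg2, the PSD-93 scaffold, fell there as well, with 201 and 262 CPM in the TBI right libraries, against 351 and 305 CPM in the sham libraries in the same order, at -0.49 (SE 0.11, edgeR adjusted p = 0.0225). Dpp10, an auxiliary subunit of Kv4 channels, fell in dentate granule-like neurons, with 28.8 and 33.1 CPM in the TBI right libraries, against 53.5 and 54.8 CPM in the sham libraries, at -0.80 (SE 0.15, edgeR adjusted p = 0.0157). None of these 3 had overlapping libraries, and the median log2 fold of the list over its class pairs was -0.03. The neuron RNA share that was lower in TBI right astrocytes stands beside the Cntnap2 and Dlg2 values too, and its part in them was not tested.

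For TBI left against TBI right, 1 of 163 class pairs of the list was called, where 0.0318% of all gene and class pairs were called. It was Dlg2, which rose in microglia (log2 fold 5.10, edgeR adjusted p = 5.75e-09), and a single nucleus of TBI VEGFC left gave 57.9% of its 121 UMIs. The higher neuron RNA share of the TBI left microglia stands beside this value too, and its part was not tested. For the difference of VEGFC folds, 2 of 180 class pairs of the list were called, where 0.221% of all gene and class pairs were called. Of these, Dpp10 passed in mixed neurons, the class of the Kcnh7 call. Dpp10 had 1440 and 1650 CPM in TBI VEGFC left and right, 1225 and 1172 CPM in TBI GFP left and right, 1204 CPM in sham VEGFC and 2308 CPM in sham GFP, a difference of log2 folds of 1.42 (SE 0.25, edgeR adjusted p = 0.000449).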

How the data were processed

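Nuclear RNA from microdissected, frozen hippocampi was sequenced in 6 libraries with 10x Genomics 3' v3.1 chemistry, per the labels' protocols. Per the submitters' processing notes, the tools were Cell Ranger 7.0.1 and Scanpy on mm10; no source states their settings. The authors deposited raw UMI counts for each gene in each nucleus, and metadata with the library, class and cluster, the total count, the percent of mitochondrial UMIs and a doublet score of each nucleus. All deposited nuclei had at least 1001 UMIs, at most 0.999% mitochondrial UMIs and doublet scores up to 0.099. All were kept. Doublets were not called again, because high scores are missing from the deposited metadata. Summed and deposited totals differed by at most 9 UMIs per nucleus.

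Counts were summed per library in 9 classes and 4 neuron subsets, and CPM is relative to the UMIs of that sum. Sums of all genes were tested with edgeR 4.0.16 in R 4.3.3 (filterByExpr, TMM, quasi-likelihood F test, Benjamini-Hochberg adjustment within population and comparison, threshold 0.05), with terms for context and vector. SE was taken as the size of the log2 fold over the root of F. The steps were tested on simulated data. Alternatives were RLE size factors, library totals, no filter, DESeq2 1.42.0, limma-voom 3.58.1, a doublet score of at most 0.05, leaving out nuclei over 2% neuron RNA, and leaving out each library (for the difference of VEGFC folds each TBI library, with DESeq2, no filter and the doublet limit added after seeing the data). Spans and coordinates are from GENCODE vM21.

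Named in a comparison is every member past the threshold. Where fewer than 10 pairs of member and population pass, the pairs of smallest p up to 10 in each direction with a mean of at least 10 CPM are added as not past it. Named in levels are members set apart in a class, up to 5 per class by ratio to the next class, and the 3 highest of each family; the neuron subset genes, the glial genes Kcnj10, Kcnj16 and Kcnk13, and a few others were named after their values were seen. Members and lists were chosen with earlier results of these data known. Some genes that meet this rule are not reported here.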

Additional observations from a re-analysis of the deposited data

Results flagged for a closer look

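The vector fold of Kcnh7 in mixed neurons differed between TBI and sham: VEGFC against GFP was positive after TBI and negative after sham, a difference of 1.30 on the log2 scale (SE 0.26, edgeR adjusted p = 0.0027, left and right TBI libraries as replicates). Sham had 1 library per vector, so the p-value holds no spread between sham libraries. Groups of 1 library allow no check for samples that lie far from the others.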

How the results depend on the processing

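The Kcnk1 fold in astrocytes (TBI right against sham right, -0.82) kept its direction under every alternative run and passed with RLE size factors, library totals, limma-voom, no filter and the neuron RNA limit. It did not pass with DESeq2 (-0.82, adjusted p = 1.00) or a doublet score of at most 0.05 (-0.78, adjusted p = 0.345), and without each library in turn it was -1.23 to -0.42. The Kcnh7 difference in mixed neurons (1.30) passed with RLE size factors (1.28), library totals (1.18), limma-voom (1.29) and, added after seeing the data, DESeq2 (1.28) and no filter (1.37), and not at the doublet limit (2.05, adjusted p = 0.874). Counts of called members moved as follows. Without a filter on low counts, VEGFC against GFP had 2 in classes (Kcnt1, Kcnmb2), TBI right against sham right 1 in subsets (Kcnip4) and left against right 1 in classes (Kcnip4). TBI right against sham right had 0 with DESeq2 and 0 at the doublet limit. With limma-voom, the difference of VEGFC folds had 2 in classes and 2 in subsets, without a filter 2 and 1, and at the doublet limit 7 and 2 (both added after seeing the data). Without each library in turn, VEGFC against GFP had 0 to 4 in classes and 0 to 1 in subsets, TBI right against sham right 0 to 3 and 0 to 1, left against right 0 to 9 and 0 to 0. Without each TBI library in turn, the difference of VEGFC folds had 1 to 6 and 0 to 0, since neither sham library can be left out of it. The 9 came without TBI VEGFC left, all in inhibitory neurons: Kcna4, Kcnd2, Kcnh1, Kcnh4, Kcnip3, Kcnip4, Kcnk2, Kcnmb2 and Kcnq5. That library had the highest interneuron share, 83.2%, and the cause was not tested. The 6 came without TBI GFP right. Shares of all genes called are not given for these alternatives, so the counts are not read as particular to the members. Kcnmb2 in mixed neurons (left against right, -0.85) reversed to 0.072 without TBI VEGFC left, in a range of -1.89 to 0.072 without each library in turn. At the doublet limit the difference of VEGFC folds reversed for Kcnq5 in CA3-like neurons (-0.24) and Kcnk2 in mixed neurons (0.12), and the cause was not tested. Of 504 values for the 82 named pairs with all libraries, 491 kept direction and side of the threshold and 2 reversed. All these pairs but Kcnk1 in astrocytes and Kcnh7 in mixed neurons had not passed. For them, keeping side means staying uncalled, in the same counts from which they were picked. As a mean over nuclei, Kcne2 in choroid plexus was 211 CPM, and 56 of 60 members kept their highest class. The doublet limit could not be fitted in microglia and fibroblasts. The fits match VEGFC with GFP within each context. No paired analysis was possible because, beyond that, no replicate number is shared between groups. Microglia had 54357 to 207540 UMIs per library and fibroblasts 45757 to 157647, which limits precision there.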
